A study of Rattus norvegicus with 22 samples.

Results

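The transcripts described here are 6 members of the Fc receptor pathway in rat hippocampus after traumatic brain injury (TBI): the activating receptors Fcgr1a, Fcgr3a and Fcgr2a, the inhibitory receptor Fcgr2b, the shared signalling chain Fcer1g and the kinase Syk. They were taken by name from a table of 17172 genes, and all 6 were among the 12875 genes with enough counts to be tested. Rats received moderate lateral fluid percussion, a pulse of fluid against the exposed dura, or a sham operation with the same surgery and anesthesia and no pulse. All were adult male Sprague-Dawley rats, and bulk RNA was sequenced from the hippocampus ipsilateral to the injury. The groups were sham day 1 (2 samples), TBI day 1 (4), sham day 14 (4) and TBI day 14 (4), each day counted from the operation. The sham rats also had an opened skull, so that every comparison is against operated, not naive, tissue. Animal identities are not in the labels, and p-values measure the spread between these numbered samples.

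Fc gamma receptors bind the constant part of IgG. The activating receptors of this set, encoded by Fcgr1a, Fcgr3a and Fcgr2a in the rat, signal through the FcR gamma-chain, the product of Fcer1g, whose tyrosine motif (ITAM) is phosphorylated by Src-family kinases and then docks and activates SYK, a step that leads to phagocytosis and cytokine release. Fcgr2b carries an inhibitory motif that recruits phosphatases and dampens the same pathway. In brain these genes are expressed mainly by microglia and by macrophages that enter or border the tissue.

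Fcgr2b, Fcgr3a, Fcgr2a and Fcer1g lie on chromosome 13, while Fcgr1a lies on chromosome 2 and Syk on chromosome 17, according to RefSeq (GRCr8). The count table gives symbols without positions. RefSeq lists Fcgr3 and Fcgr3a as older symbols of the gene now named Fcgr2a, lists Fcgr4 as an older symbol of Fcgr3a, and places a gene of like name, Fcgr2al1, beside Fcgr2a. How reads matching several of these related genes were counted is not given in the sources used here, so that the split of counts between Fcgr2a, Fcgr2b and Fcgr3a is uncertain.

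Sequence before the start of transcription was held by the RefSeq promoter table (GRCr8) for 3 of the 6 members. The windows of Fcgr3a and Syk, genes that rose at both days, are shown as the 250 bases up to the start, 5′ to 3′ along the gene. Capitals mark the letters GAGGAA, found in sites bound by the myeloid factor PU.1, an ETS protein. They were searched on both strands, where TTCCTC is the same letters on the opposite strand. Shorter or variant sites of ETS proteins were not searched and are not marked.
Fcgr3a, chr13:85782386-85782635, plus strand: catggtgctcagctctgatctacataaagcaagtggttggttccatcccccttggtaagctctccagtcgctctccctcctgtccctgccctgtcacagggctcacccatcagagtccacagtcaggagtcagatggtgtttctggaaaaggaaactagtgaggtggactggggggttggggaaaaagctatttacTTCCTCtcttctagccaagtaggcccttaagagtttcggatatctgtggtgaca
Syk, chr17:12813274-12813523, minus strand: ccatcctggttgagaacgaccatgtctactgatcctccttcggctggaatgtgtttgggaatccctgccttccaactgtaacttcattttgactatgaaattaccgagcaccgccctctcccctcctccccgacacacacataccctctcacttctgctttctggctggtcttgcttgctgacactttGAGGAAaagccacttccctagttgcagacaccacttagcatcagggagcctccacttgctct
The Fcgr3a window held these letters once, on the opposite strand, 54 bases before the start. The Syk window held them once, on the gene's own strand, 62 bases before the start. For Fcgr2a, 1 of the listed starts had matches 143 and 102 bases upstream, and the other had none. The letters occurred in 23.3% of 33469 rat promoter windows of this length, so that a match is a description of the window and not a binding site.

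Depth ranged from 15065540 to 23743703 counted reads per sample. In 3 libraries, sham day 1 replicate 1 and TBI day 14 replicates 2 and 3, Ttr, a transcript made in bulk by the choroid plexus, had 140652, 24020 and 141619 counts, against 70 to 197 in the other samples. One of these is among the 2 samples of sham day 1, and calls that change without the 3 libraries are given both ways. Levels are in CPM, read counts per gene scaled to library size with TMM factors. Fold changes come from 1 edgeR quasi-likelihood fit over all 14 samples, with two-sided p-values adjusted by Benjamini-Hochberg over the 12875 genes, and a gene is called at an adjusted p under 0.05.

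At 1 day after injury, 5 of the 6 members were higher in TBI than in sham day 1, whereas 11.2% of all tested genes were called higher. The median log2 fold change of the 6 was 2.57, against −0.02 for all tested genes. At day 14, 5 of 6 were higher than in sham day 14, against a background of 4.07%, with a median of 1.61 against −0.03. The members called were Fcgr1a, Fcgr3a, Fcgr2b, Fcer1g and Syk at both days, and Fcgr2a was called at neither. In bulk tissue, a change in the number of cells that carry a transcript and a change in the amount of RNA per cell cannot be told apart.

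**Figure D1:**
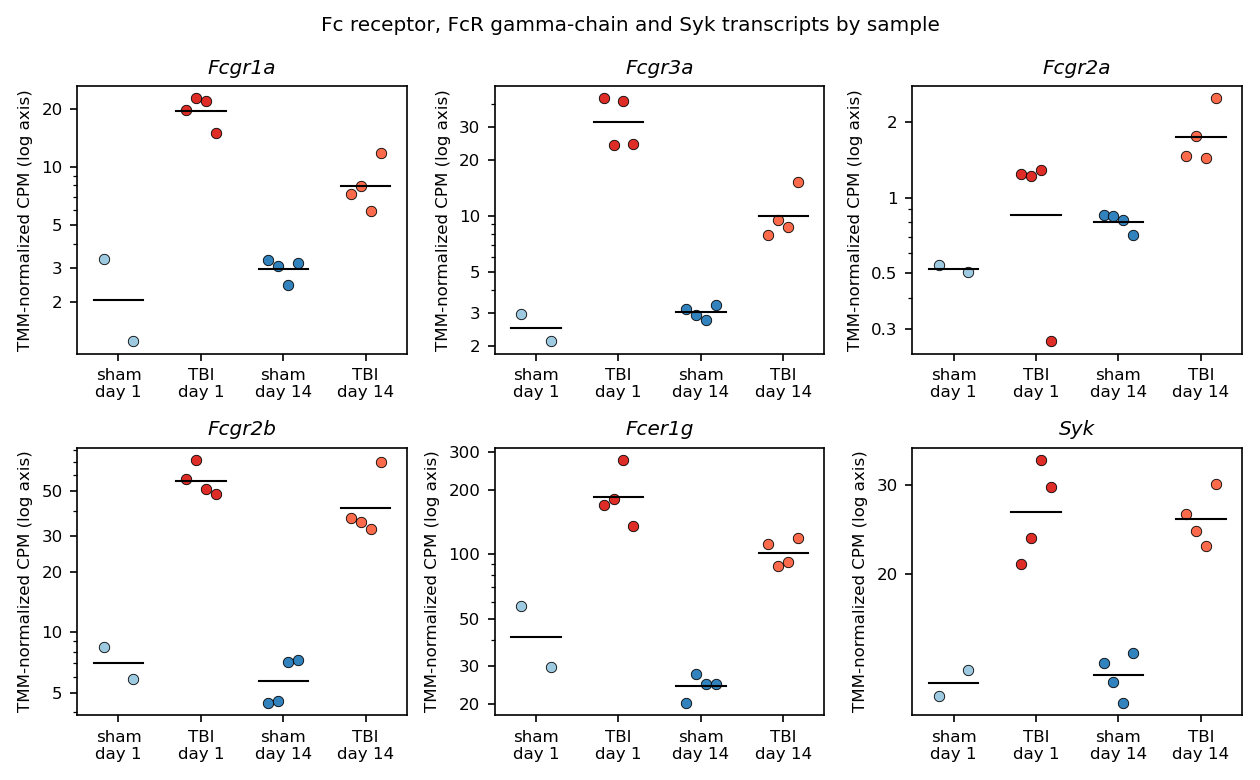
Level of each member in every sample, as TMM-normalized CPM on a log axis; points are samples and bars are geometric means of a group. For all members but Fcgr2a, every TBI sample lay above every sham sample of either day. For Fcgr2a, 1 TBI day 1 sample lay at 0.269 CPM, below all sham samples. How many of all tested genes separate TBI from sham in this way was not counted.

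Fcgr1a encodes the high-affinity IgG receptor. Its levels were 3.34 and 1.24 CPM in sham day 1 and 19.7, 22.6, 21.9 and 14.9 CPM in TBI day 1. In sham day 14 they were 3.28, 3.06, 2.43 and 3.16 CPM, and in TBI day 14 they were 7.23, 7.91, 5.91 and 11.7 CPM. All TBI day 1 samples exceeded all TBI day 14 samples, which in turn exceeded all sham samples. Against the sham rats of the same day, Fcgr1a rose 8.69-fold at day 1 (log2 3.12, SE 0.38, adjusted p = 7.98e-05 by edgeR) and 2.75-fold at day 14 (log2 1.46, SE 0.28, adjusted p = 0.00478). The sham day 1 samples held 62 and 27 counts of it, and the log2 change at day 1 was 3.98 without the former and 2.56 without the latter.

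Fcgr3a, listed in RefSeq with the synonym CD16-2, encodes a receptor of intermediate affinity and had the highest fold change of the 6 at day 1. Sham day 1 had 2.96 and 2.12 CPM, whereas TBI day 1 had 42.7, 23.9, 41.4 and 24.2 CPM. Sham day 14 had 3.15, 2.94, 2.76 and 3.32 CPM, and TBI day 14 had 7.89, 9.49, 8.74 and 15.1 CPM. The order of the groups was that of Fcgr1a, again without overlap between TBI day 1, TBI day 14 and sham. The rise was 13-fold at day 1 (log2 3.70, SE 0.36, edgeR adjusted p = 1.26e-05), which placed the gene at rank 151 of all tested genes by log2 fold change. At day 14 it was 3.39-fold (log2 1.76, SE 0.26, edgeR adjusted p = 0.000558).

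Fcgr2a, in the rat the activating receptor once named Fcgr3, was counted at low depth. It had 10 and 11 counts in sham day 1, 24, 30, 28 and 6 in TBI day 1, 13, 14, 15 and 13 in sham day 14, and 22, 30, 29 and 47 in TBI day 14. All TBI day 14 samples lay above all sham day 14 samples, but at day 1 replicate 4 of TBI fell below both sham samples. The log2 change was 0.93 at day 1 (SE 0.53, 95% confidence interval −0.20 to 2.06, edgeR adjusted p = 0.229) and 1.15 at day 14 (SE 0.40, interval 0.29 to 2.01, adjusted p = 0.167). Both intervals, which are not adjusted for the number of genes tested, include changes of the size found for Syk, so that the missed threshold at this depth does not show that Fcgr2a was level. With that low TBI sample left out, day 1 gave 1.25 (edgeR adjusted p = 0.0293). A fit of only the day 14 groups gave 1.19 (edgeR adjusted p = 0.0151), and either fit would call all 6 members. No other alternative called Fcgr2a at either day. The fit of only the day 1 groups gave 0.96 (edgeR adjusted p = 0.499). Adjusted p-values at day 1 and day 14 were 0.468 and 0.273 with limma-voom, and 0.238 and 0.11 with DESeq2.

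Fcgr2b is the inhibitory receptor of the set. Its levels were 8.46 and 5.86 CPM in sham day 1 and 57.5, 71.8, 51.1 and 48.6 CPM in TBI day 1. They were 4.46, 4.57, 7.14 and 7.24 CPM in sham day 14, and 36.9, 35.0, 32.6 and 69.6 CPM in TBI day 14. The TBI samples of both days stood apart from all sham samples, and TBI day 14 replicate 4 lay within the range of TBI day 1. Fcgr2b rose 8.01-fold at day 1 (log2 3.00, SE 0.35, edgeR adjusted p = 5.74e-05) and 7.41-fold at day 14 (log2 2.89, SE 0.27, edgeR adjusted p = 1.38e-05). By log2 fold change it ranked 244 among all tested genes at day 1 and 103 at day 14.

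Fcer1g, whose product is the signalling chain that the activating receptors share, had 57.1 and 29.8 CPM in sham day 1 and 169.9, 181, 276 and 135 CPM in TBI day 1. In sham day 14 it had 20.3, 27.7, 24.7 and 24.8 CPM, and in TBI day 14 it had 112, 87.8, 92.4 and 119 CPM. Every TBI sample lay above every sham sample, and the lowest TBI day 1 sample lay above the highest of TBI day 14. The rise was 4.39-fold at day 1 (log2 2.13, SE 0.30, edgeR adjusted p = 0.000239) and 4.21-fold at day 14 (log2 2.07, SE 0.23, edgeR adjusted p = 6.51e-05). Leaving out sham day 1 replicate 1 gave a log2 change of 2.68 at day 1, and leaving out replicate 2 gave 1.74.

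Syk encodes the tyrosine kinase that docks on the phosphorylated chain. Its levels were 11.4 and 12.9 CPM in sham day 1 and 20.9, 23.5, 33.6 and 29.6 CPM in TBI day 1. They were 13.3, 12.2, 11.1 and 13.9 CPM in sham day 14 and 26.2, 24.3, 22.7 and 30.1 CPM in TBI day 14. The TBI samples of both days overlapped with each other and lay above all sham samples. Syk rose 2.21-fold at day 1 (log2 1.15, SE 0.20, edgeR adjusted p = 0.0015) and 2.04-fold at day 14 (log2 1.03, SE 0.16, edgeR adjusted p = 0.000897). Of the 5 called members it had the smallest fold change at both days.

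**Figure D2:**
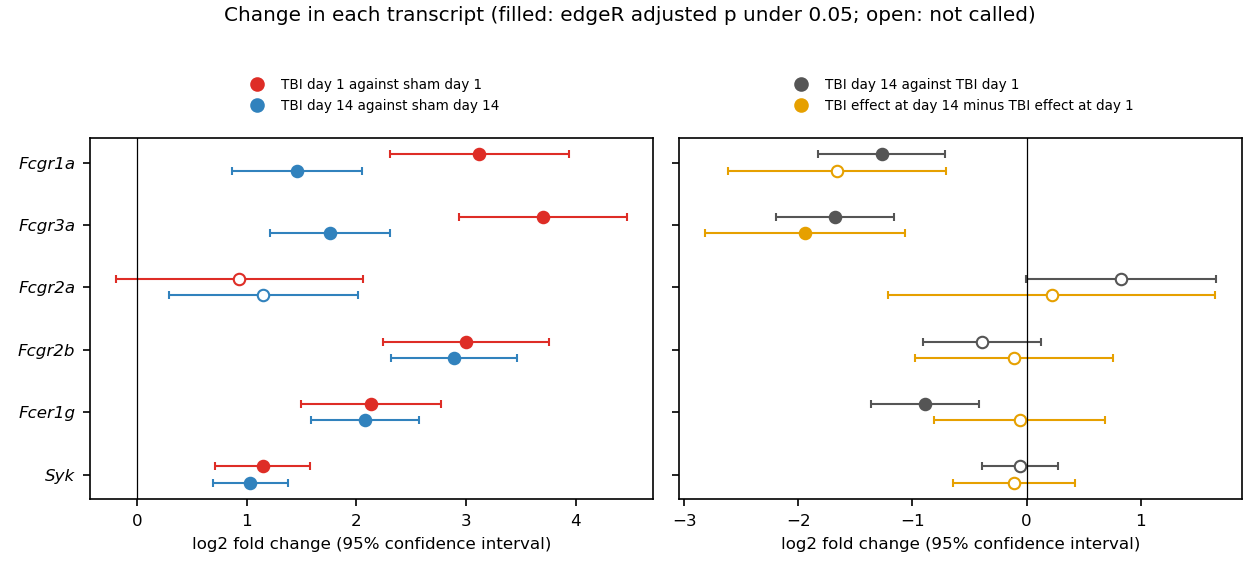
Log2 fold changes of the 6 members with 95% confidence intervals from the edgeR fit; filled points have an adjusted p under 0.05. Left, TBI against the sham rats of the same day; right, TBI day 14 against TBI day 1 and the difference between both TBI effects, where Fcgr3a lies at −1.94 and Syk, Fcer1g, Fcgr2b and Fcgr2a lie between −0.11 and 0.22.

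The time course was compared between the TBI groups directly and as the difference between the TBI effects of both days. From TBI day 1 to TBI day 14, 3 of 6 members fell, against 21.9% of all tested genes called lower. Fcgr3a fell by 1.68 on the log2 scale (SE 0.24, edgeR adjusted p = 0.00011), Fcgr1a by 1.27 (SE 0.26, adjusted p = 0.00163) and Fcer1g by 0.89 (SE 0.22, adjusted p = 0.00542). Without the 3 libraries rich in Ttr the value of Fcer1g was −0.70 and it was no longer called (edgeR adjusted p = 0.0516). Fcgr2b differed by −0.39 (95% confidence interval −0.91 to 0.12, edgeR adjusted p = 0.213). Without TBI day 14 replicate 4, the highest of its group, Fcgr2b was called at −0.72 (adjusted p = 0.0157), and without the 3 libraries rich in Ttr it was at −0.07 (adjusted p = 0.872). Syk differed by −0.06 (interval −0.39 to 0.27, edgeR adjusted p = 0.787), and Fcgr2a was 0.83 higher at day 14 without passing the test (adjusted p = 0.104).

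When the change at day 1 was subtracted from the change at day 14, 1 of 6 members was called lower, against 2.24% of all tested genes. For Fcgr3a the effect at day 14 was smaller than that at day 1, with a log2 difference of −1.94 (SE 0.41, 95% confidence interval −2.82 to −1.06, edgeR adjusted p = 0.019). The call was lost in several alternatives: the value was −1.71 without sham day 1 replicate 2 (adjusted p = 0.096), −2.0 without the 3 libraries rich in Ttr (adjusted p = 0.0922) and −1.94 with limma-voom (adjusted p = 0.0781). For Fcgr1a the difference was −1.66 (SE 0.45, edgeR adjusted p = 0.0537), which missed the threshold in the fit of all samples and passed it without sham day 1 replicate 1 at −2.52 (adjusted p = 0.00896). It was −1.10 without sham day 1 replicate 2 (edgeR adjusted p = 0.225) and −2.27 without the 3 libraries rich in Ttr (adjusted p = 0.0319). For Fcgr2b, Fcer1g and Syk the difference lay between −0.11 and −0.06, with intervals of −0.98 to 0.75, −0.81 to 0.69 and −0.65 to 0.42, so that changes of up to these bounds in either direction remain possible.

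The study took sham day 14 as the baseline for its trajectories, and against that group 5 of 6 members were again higher at TBI day 1, where 25.0% of all tested genes were. The log2 changes of Fcgr3a, Fcgr2b, Fcer1g, Fcgr1a and Syk were 3.44, 3.28, 2.97, 2.73 and 1.09, and that of Fcgr2a was 0.32 (edgeR adjusted p = 0.548). This comparison shares its sham samples with that of day 14 and its TBI samples with that of day 1. Between the sham groups themselves, 1 of 6 members was called higher at day 1, against 11.3% of all tested genes. That gene was Fcer1g, with a log2 difference of 0.83 (SE 0.27, edgeR adjusted p = 0.0417). Without sham day 1 replicate 1, a library rich in Ttr, it was 0.29 (adjusted p = 0.52), and leaving out any 1 of the sham day 14 samples also ended the call. For Fcgr1a that comparison gave −0.39 (edgeR adjusted p = 0.469) with all samples, −1.25 (adjusted p = 0.0494) without sham day 1 replicate 1 and 0.17 (adjusted p = 0.817) without replicate 2.

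The balance of the inhibitory receptor and the activating chain was followed by the ratio of Fcgr2b to Fcer1g counts within a sample, which does not depend on the scaling of libraries. Because gene length enters each ratio, only its change between samples is read. It was 0.149 and 0.197 in sham day 1, 0.338, 0.398, 0.185 and 0.359 in TBI day 1, 0.221, 0.166, 0.290 and 0.293 in sham day 14, and 0.330, 0.399, 0.353 and 0.588 in TBI day 14. All TBI day 14 samples lay above all sham day 14 samples, while at day 1 replicate 3 of TBI lay between both sham samples. On the log2 scale the ratio was higher by 0.78 at day 14 (1.72-fold, exact permutation test, two-sided p = 0.0286, the smallest that 70 arrangements can give). Adjusted over the 3 comparisons made, this exact p was 0.0857. At day 1 the difference was 0.84 (exact permutation p = 0.2, adjusted p = 0.3), where 15 arrangements cannot give a p under 0.0667. TBI day 14 exceeded TBI day 1 by 0.40 (exact permutation p = 0.371).

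Ratios of other members are given as descriptions. Fcgr2b to Fcgr3a was 3.68 to 4.66 in TBI day 14 and 1.23 to 3.00 in TBI day 1. It was 2.74 to 2.84 in sham day 1 and 1.41 to 2.57 in sham day 14, so that the TBI day 14 samples lay above all others. Syk to Fcer1g was 0.234 to 0.277 in TBI day 14, below the 0.441 to 0.658 of sham day 14. In TBI day 1 it was 0.122 to 0.219, and in sham day 1 it was 0.200 and 0.434.

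**Figure D3:**
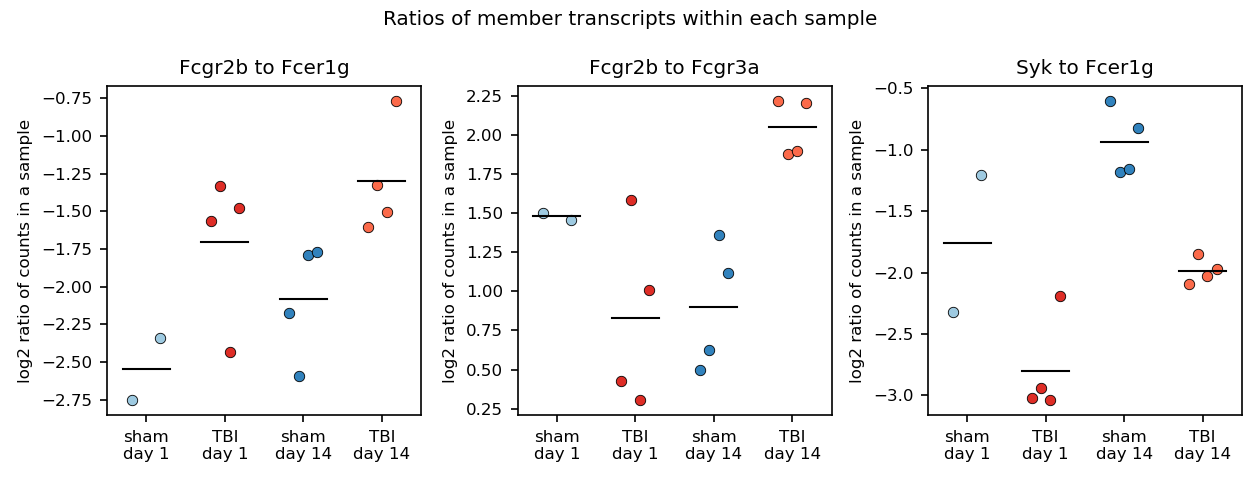
Log2 ratio of counts of a pair of members within each sample; points are samples and bars are group means. The ratio of Fcgr2b to Fcgr3a was highest in the 4 TBI day 14 samples, and the ratio of Syk to Fcer1g was lower in TBI day 14 than in sham day 14 without overlap.

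Across the 14 samples the log2 CPM of Fcgr1a, Fcgr3a, Fcgr2b, Fcer1g and Syk varied together, with Pearson r of 0.847 (Fcgr1a with Syk) to 0.973 (Fcgr1a with Fcgr3a). With Fcgr2a the others had r of 0.345 to 0.493. These values describe samples that fall into groups and share libraries, and carry no test. Among all tested genes outside the set, those most like Fcgr1a were Vasp (r = 0.991), Ifitm3 (0.99) and Ppp1r18 (0.988). Fcgr3a was most like Spp1 (0.982), which encodes osteopontin, and Nek6 (0.978) was also among its closest. Fcgr2b was most like Ifi30 (0.983), Clec12a (0.979) and Ptprc (0.979), and Fcer1g was most like Spi1 (0.979), which encodes PU.1, Tyrobp (0.979) and Rac2 (0.976). Syk was most like Olr1 (0.980), Plau (0.964) and Lgmn (0.963). For Fcgr2a, Cndp2 (0.869) and Nrros (0.861) were among the closest genes, with r below those of the genes named for the other members.

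Other genes of the pathway were counted by role in 7 lists. Beside the counts of these lists and of the marker lists below stand the shares of all tested genes. At day 1, 11.2% were called higher and 7.93% lower, and at day 14, 4.07% were called higher. Of the other Fc-binding receptors, 8 of 12 were in the table and 4 were tested. At day 1 all 4 missed the threshold, with edgeR adjusted p-values of 0.126 or more. At day 14, 1 of 4 was called, Fcrl2, an Fc receptor-like gene, at a log2 change of 3.67 (SE 0.43, edgeR adjusted p = 0.000107), from 322 to 431 counts per sham sample against 3042 to 8882 per TBI sample. Its change at day 1 was 0.67 (edgeR adjusted p = 0.363). Of 10 immunoglobulin and pentraxin ligands, 3 were in the table and 1 was tested, the pentraxin Ptx3, which rose by log2 2.44 at day 1 (SE 0.50, edgeR adjusted p = 0.0039) and had 0.96 at day 14 (adjusted p = 0.266). The 3 were Crp, Apcs and Ptx3. The immunoglobulin genes of that list were not in the table under the symbols searched, so that their levels are not known here.

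Src-family kinases, which phosphorylate the receptor chain, and their regulators included 10 tested genes, of which 5 were higher at day 1 and 4 at day 14. Fgr, a kinase of myeloid cells, rose by log2 3.43 at day 1 and by 1.76 at day 14. Ptprc, the phosphatase CD45 that activates these kinases, rose by 2.56 and 2.46 at day 1 and day 14. Of 13 tested genes for other ITAM adaptors and SYK-coupled receptors, 9 were higher and 1 lower at day 1, and 6 were higher at day 14. The gene that fell was Selplg, which encodes the P-selectin ligand PSGL-1, at −1.39 (edgeR adjusted p = 0.00994), where 7.93% of all tested genes were called lower. Clec7a, the beta-glucan receptor Dectin-1, had 3 to 8 counts per sham sample and 317 to 807 per TBI sample at day 1, a log2 change of 6.65, and one of 5.88 at day 14. Trem1 and Clec4d had no counts in sham day 1 and 37 to 84 and 15 to 68 counts in TBI day 1, so that with a floor of 3 counts per sham library they were at least 16.0-fold and 8.91-fold higher.

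Among 26 tested SYK adaptors and effectors, 11 were higher at day 1 and 10 at day 14. Vav1, an exchange factor for Rac, rose by log2 2.27 and 2.14 at the respective days, Pik3r5, a regulatory subunit of the gamma-type PI3-kinase, by 1.98 and 1.65, and the adaptor Lat2 by 1.67 and 2.36. Btk rose by 1.92 at day 1 (edgeR adjusted p = 0.00432) and had 1.18 at day 14 (adjusted p = 0.0533). Of 21 tested phagocytic cup and actin genes, 8 were higher at day 1 and 7 at day 14, among them the GTPase Rac2 (2.65 and 2.13) and the actin-branching subunit Arpc1b (2.60 and 1.31). Pak1, a kinase abundant in neurons, fell by 0.67 at day 1 (edgeR adjusted p = 0.0213). Of 12 tested phosphatases and negative regulators, on the side of Fcgr2b, 8 were higher at day 1 and 5 at day 14. Ptpn6, the phosphatase SHP-1, rose by log2 2.16 and 1.82, and the adaptor Dok3 by 2.06 and 0.82.

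**Figure D4:**
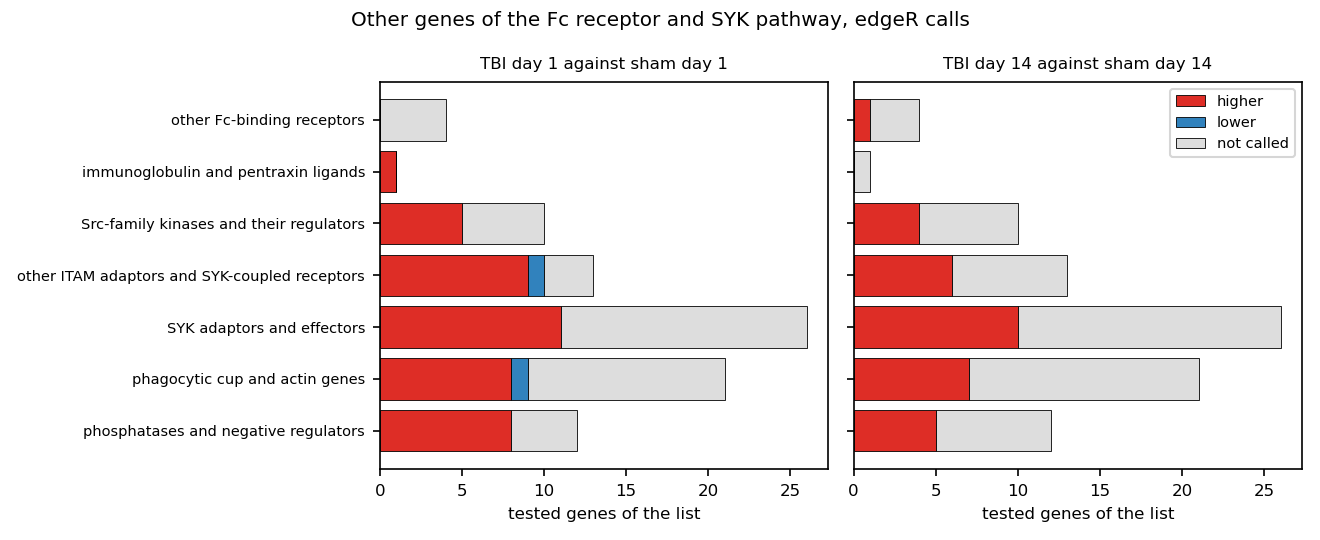
Number of tested genes of each pathway list called higher, called lower or not called by edgeR in TBI against the sham rats of the same day; bars start at 0. The lower calls at day 1 are Selplg and Pak1.

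Markers of the cells that could carry these receptors moved with the groups as well, and their part in the results was not tested. Of 11 microglia markers tested, 1 was higher and 3 lower at day 1, and 8 were higher at day 14. Their levels summed to 424 to 625 CPM in the sham and 465 to 582 CPM in the TBI samples of day 1. At day 14 the sums were 445 to 577 CPM in the sham and 909 to 1498 CPM in the TBI samples. Fcgr3a, Fcgr1a, Fcgr2b, Fcer1g and Syk had their highest mean levels in TBI day 1. Of these, Fcgr2b (edgeR adjusted p = 0.213) and Syk (adjusted p = 0.787) were not called between TBI day 1 and TBI day 14. The summed microglia markers overlapped with sham at day 1 and did not at day 14. The marker called higher at day 1 was Aif1, at log2 1.33. Those called lower were Tmem119, P2ry13 and P2ry12, at −1.90, −0.995 and −0.88. Whether the sum follows the number of microglia was not tested. Of 6 perivascular macrophage markers tested, 4 were higher at day 1, while at day 14 all had edgeR adjusted p-values of 0.249 or more, and the sums at day 1 were 8.48 to 16.1 CPM after the sham operation and 45.3 to 73.8 CPM after TBI. At day 14 they were 6.67 to 10.5 CPM and 7.63 to 19.0 CPM. For monocytes, 3 of 4 markers were higher at day 1 and all were at an edgeR adjusted p of 0.935 or more at day 14, with sums of 59.0 to 60.9, 76.2 to 128, 62.1 to 75.7 and 47.8 to 84.9 CPM in sham and TBI of day 1 and then of day 14. For neutrophils, 4 of 6 tested markers were higher at day 1 and 1 at day 14, with sums of 4.52 to 10.2, 29.6 to 79.7, 5.57 to 7.67 and 15.6 to 27.8 CPM in the same order. The neutrophil marker called at day 14 was Csf3r, with 261 to 490 counts in TBI day 14. There S100a8 had 0 to 4 and Cxcr2 had 0 to 2 counts, within the range of the sham samples of that day. S100a9 had 8 to 14 counts in TBI day 14 and 2 to 9 in sham day 14, and Mmp8 had 1 to 20 and 0 to 1. Neither S100a9 nor Mmp8 was called at day 14.

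**Figure D5:**
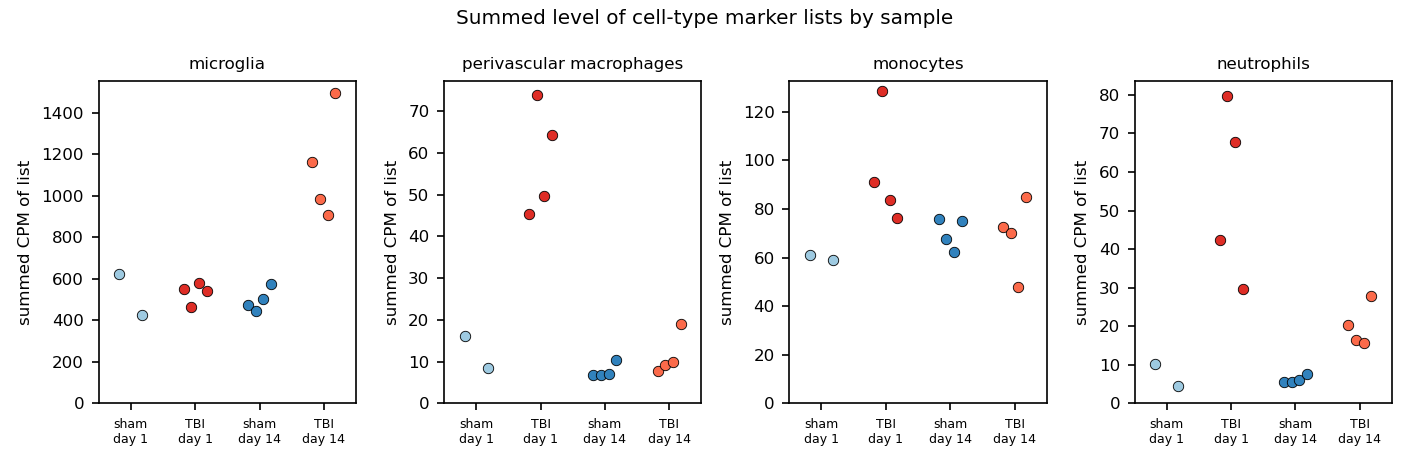
Summed CPM of 4 marker lists in every sample; points are samples and axes start at 0. Microglia markers were highest in TBI day 14, at 909 to 1498 CPM, and perivascular macrophage and neutrophil markers in TBI day 1.

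Of the other lists, lymphocyte and NK cell markers had 1 of 3 tested genes higher at day 1, and summed to 0.599 to 21.8 CPM over all samples. Mast cells also use Fcer1g, and their 6 markers summed to 37.3 to 199.8 CPM over all samples. Most of this was Kit, which other cells express too, with 714 to 4087 counts and a log2 change of −0.98 at day 1 (edgeR adjusted p = 0.0308). Hdc had 5 to 65 counts and was not called against sham at either day, and both genes were higher in TBI day 14 than in TBI day 1. Of the others, Tpsb2 and Cma1 had at most 2 counts in a sample, and Cpa3 and Mcpt1 had none in any. Neuron markers, which summed to 2314 CPM or more in every sample of this hippocampal tissue, were lower at day 1 for 5 of 8 genes, and at day 14 all 8 had edgeR adjusted p-values of 0.503 or more. Astrocytes had 1 of 6 markers higher at both days, and endothelial cells had 1 of 5 higher and oligodendrocytes 1 of 5 lower at day 1. Choroid plexus had 9 of 11 lower at day 1, a comparison that holds sham day 1 replicate 1, a library rich in Ttr. At day 14, 1 of 11 was higher, Ttr itself, in a comparison that holds TBI day 14 replicates 2 and 3, the other libraries rich in Ttr.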

How the data were processed

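Single-end reads of 50 bases from stranded mRNA libraries were aligned by the authors to rn5 with STAR 2.4.2a and counted per gene with featureCounts 1.5.0 on UCSC annotation, and these counts were deposited without normalization. Gene counts of 14 samples were analyzed here with edgeR 4.0.16 (R 4.3.3): TMM factors, filterByExpr by group, 1 mean per group, glmQLFTest. All columns were mapped to samples by their names. CPM on the log2 scale used a prior count of 2, and ratios a pseudocount of 0.5. Intervals are 95%, and floors cover counting error only, as reads carry no molecular identifiers. In a single simulated data set, the same 200 of 12749 genes were changed by log2 2 in both TBI groups, and the other genes were level. There edgeR recovered 88.5% at day 1 with 7 false calls and 92.5% at day 14 with 5. Smaller changes, such as those of Syk and Fcgr2a, were not simulated.

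Members, 7 pathway lists and 11 marker lists were chosen with earlier results of these data known. Beside the members, genes were named as the 3 with the largest change per pathway list and day, the 1 most changed in the opposite direction, and the 3 most like each member; some genes that this rule picks are not reported here. Histone peak lists lie on rn5, whose annotation was not used here, and were not analysed. Alternatives were limma-voom 3.58.1, DESeq2 1.42.0, median-of-ratios factors, other filters and thresholds, a replicate block, fits of only the groups compared, and fits without single libraries or the 3 rich in Ttr.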

Additional observations from a re-analysis of the deposited data

Results flagged for a closer look

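Over 21 sets of 4 samples (6 members and the ratio of Fcgr2b to Fcer1g in 3 groups), 2 held a sample far from the others, where chance marks about 1 in 20. Fcgr2a in TBI day 1 replicate 4 was the lowest of its group at a log2 CPM of −1.42, from 6 counts, with the other 3 samples between 0.40 and 0.47. Fcgr2b in TBI day 14 replicate 4 was the highest of its group at a log2 CPM of 6.12, with the others between 5.03 and 5.21. The effect of TBI on Fcgr3a differed between the days by a test of the difference itself, with −1.94 on the log2 scale (edgeR adjusted p = 0.019), a call lost at an adjusted p under 0.01, with limma-voom (adjusted p = 0.0781), without sham day 1 replicate 2 (0.096) and without the 3 libraries rich in Ttr (0.0922).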

How the results depend on the processing

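Calls of 5 members at day 1 and day 14 against the same-day sham rats held for Fcgr1a, Fcgr2b, Fcgr3a, Fcer1g and Syk under every alternative run; leaving out 1 library gave 5 to 6 at day 1 and 5 at day 14. From TBI day 1 to TBI day 14 it gave 3 to 4, and 2 members were called without the 3 libraries rich in Ttr. Between the sham groups the 1 call fell to 0 at an adjusted p under 0.01, with limma-voom, without those 3 libraries and with the replicate block, and leaving out 1 library gave 0 to 1. For the difference between the effects, 0 members were called at an adjusted p under 0.01 and with limma-voom and 2 with DESeq2; leaving out 1 library gave 0 to 2, with 0 without sham day 1 replicate 2, and 2 without sham day 1 replicate 1, TBI day 1 replicate 4 or TBI day 14 replicate 4. The cause was not tested. Some values that were not called in the fit of all samples changed sign. Not all were near 0: Fcgr1a between the sham groups was −0.39 with all samples. It was called at −1.25 without sham day 1 replicate 1 (edgeR adjusted p = 0.0494). Without the 3 libraries Syk was 0.095 between the TBI groups, 0.0398 between the sham groups and 0.14 for the difference between effects. Leaving out 1 library gave −0.16 to 0.0635 for Syk between the TBI groups; −1.25 to 0.17, −0.0032 to 0.53 and −0.14 to 0.0332 for Fcgr1a, Fcgr2b and Syk between the sham groups; and −0.10 to 0.36, −0.43 to 0.13, −0.60 to 0.34 and −0.22 to 0.00999 for Fcgr2a, Fcgr2b, Fcer1g and Syk for the difference. The log2 ratio of Fcgr2b to Fcer1g differed by 0.40 from TBI day 1 to TBI day 14. With Syk in place of Fcer1g the sign was reversed, at −0.41 (exact permutation, adjusted p = 0.171). Replicate numbers did not pair the samples: deviations of same-numbered samples correlated at −0.35 to 0.24, above 0.1 in 5 of 18 pairs. With the replicate block Syk was 0.0384 between the sham groups, and the ratio of Fcgr2b to Fcer1g was 0.78 higher at day 14 (exact paired permutation, adjusted p = 0.375). Fcgr2a, at 6 to 47 counts, was limited by depth and had no value when 10 counts were required in every sample.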
